A study of Sus scrofa with 18 samples.

Results

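Endometrium of Meishan gilts on gestational day (GD) 50 was compared with that of Meishan gilts on GD15, the net change from the peri-implantation period to mid-gestation. Of the 23999 probe sets of the porcine array that are not controls, 8993 (37.5%) had an intensity above 100 on at least 3 of these 6 arrays, and all of them were tested. The series holds 18 arrays, 3 for each of GD50, GD26 and GD15 in Meishan and in Yorkshire gilts, the Meishan being a highly prolific Chinese breed. All gilts were pregnant by boars of their own breed, and a day was represented by 2 gilts. Each array held the pooled RNA of 1 conceptus-attachment site from each of the 2 gilts, so the 3 arrays of a day share their animals. The p-values below therefore measure the spread between pools of sites and not between animals, and since the 2 days were sampled from different gilts, day and animal cannot be told apart. The uteri were flushed to find the conceptuses on GD15, whereas on GD50 they were found at hysterectomy. Values are log2 GCRMA intensities, in which 1 unit is a doubling.

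Placentation in the pig is epitheliochorial: the chorion adheres to the maternal surface epithelium and does not erode it. On the attachment days, estrogen from the elongated conceptus signals pregnancy to the mother. Later, glands under progesterone secrete the histotroph, a mixture of carrier proteins, protease inhibitors, enzymes and growth factors that the chorion takes up through the areolae.

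The 6 arrays had medians of the tested probe sets between 8.40 and 8.48, and arrays of the same day correlated at 0.9485 to 0.9854, against 0.6465 to 0.7071 between the days. The array that stood furthest from its fellows was GD15 replicate 3, at 0.9485 and 0.9665, and the changes of genes named here that moved by over 1.5 times without it are given with the values so obtained. The hybridization controls, foreign transcripts added to the sample, averaged 11.22, 11.14 and 11.33 on the GD50 arrays, against 11.30, 10.28 and 9.997 on the GD15 arrays. They were thus lower on GD15 replicates 2 and 3 than on any GD50 array, and the part of this in the changes was not tested. Of 17 endometrial marker genes, 8 were on the array by symbol and 5 were tested, of which 3 were lower and none higher. Their median change was -1.73 and the lowest -5.48, and their summed linear intensity was 9072 to 13407 at GD50 and 19015 to 21587 at GD15. The stromal transcript NR2F2 averaged 9.41 at GD50 and 9.71 at GD15 (adjusted p = 0.199). The gland factor FOXA2 averaged 8.94 at GD50 and 10.67 at GD15, and MSX1, a homeobox factor of the receptive epithelium, 7.99 at GD50 and 9.95 at GD15. The receptor probe sets of the tissue were dim on both days, with ESR1 at no more than 2.23 on any array and PGR between 4.83 and 5.18 at GD50 and between 5.40 and 6.18 at GD15, under the intensity of 100, which is 6.64 in log2 units. The paper names ESR1 among the genes high at GD15 in both breeds, so the dim probe set here does not show that the gene was absent. HBB, the 1 erythroid gene tested, averaged 7.06 at GD50 and 8.46 at GD15 and was 2.64-fold lower. Epithelial markers were bright on both days, with EPCAM and CDH1 at 13.08 and 12.67 at GD50 and at 13.39 and 12.65 at GD15.

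At a Benjamini-Hochberg adjusted p under 0.05 in limma and a fold change of at least 2, 1096 probe sets (12.2% of those tested) were up-regulated at GD50 and 1205 (13.4%) were down-regulated. Among the rises, 472 were at least 4-fold, against 351 of the falls. On every GD50 array 2356 probe sets (26.2%) lay above every GD15 array, and 3078 (34.2%) lay below. The median change over all tested probe sets was -0.11. All 3 GD15 arrays were at or under 100 for 400 of the higher probe sets, and all 3 GD50 arrays for 365 of the lower ones, so their fold changes are lower bounds, with 100 in place of the dim day, and are written as "at least". The filter admitted 441 probe sets that were above 100 on all GD50 arrays and on no GD15 array, and 453 that were so only at GD15, and such probe sets had to differ. Every gene whose fold is such a lower bound is of this kind. The filter thus fixed its direction, also within the counts of the gene lists below. The filter was met by exactly 3 arrays for 1028 probe sets, and 457 others missed it with 2 arrays. Among the 6974 that were above 100 on all 6 arrays, 535 were higher and 677 lower. In terms of genes with 1 symbol, represented by their brightest probe set, 504 of 4234 (11.9%) were higher and 480 (11.3%) lower, which is the background for the gene lists below.

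**Figure D1:**
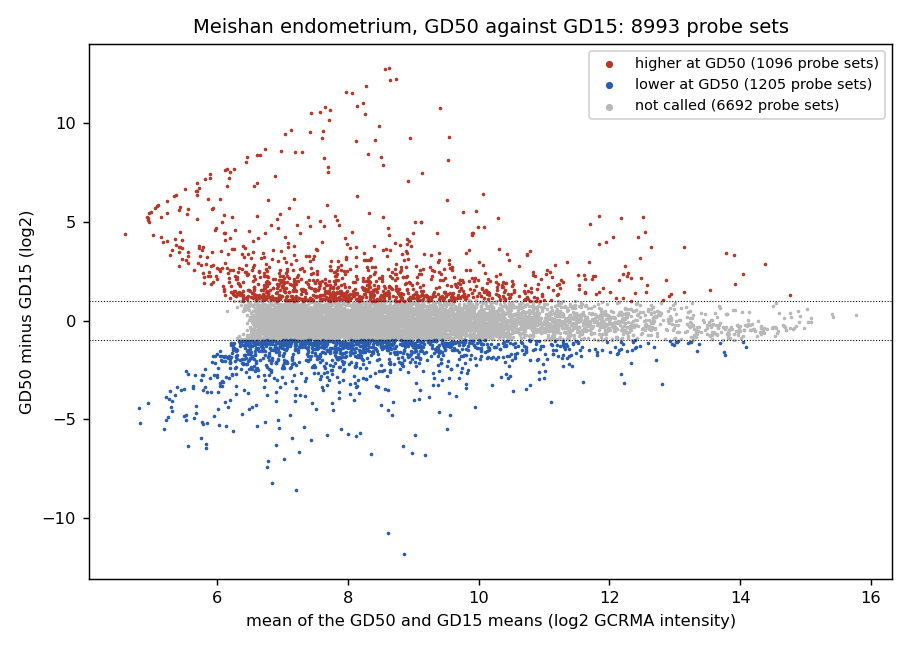
Change between the days (GD50 minus GD15, log2) of the 8993 tested probe sets against the mean of the 2 days in log2 GCRMA intensity, with 1096 higher in red, 1205 lower in blue and dotted lines at a 2-fold change. The rises reach beyond 12 log2 units, and the largest are probe sets near the floor of the array at GD15.

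The largest rise was that of PLET1, placenta-expressed transcript 1, which read 14.80, 15.14 and 14.85 on the GD50 arrays, against 2.19, 2.23 and 2.19 on the GD15 arrays (at least 312-fold higher, adjusted p = 2.34e-11). The pregnancy-associated glycoprotein PAG6, an aspartic protease relative that pig trophoblast secretes, read 14.88, 14.88 and 14.79 on the GD50 arrays, against 2.59, 2.67 and 2.59 on the GD15 arrays, at least 295-fold higher. DPPA5, best known from pluripotent cells, read 13.96, 14.09 and 13.24 at GD50, against 2.20, 2.18 and 2.18 at GD15. None of these transcripts exceeded 2.67 on a GD15 array. BPI, a protein that binds bacterial lipopolysaccharide, read 13.82, 13.76 and 13.59 at GD50, against 2.80, 2.77 and 2.63 at GD15 (at least 135-fold higher), and the secreted ribonuclease RNASE1 13.64, 13.75 and 13.31 at GD50, against 3.41, 4.80 and 4.81 at GD15. The retinol-binding protein RBP7 read 13.38, 13.41 and 13.40 at GD50, against 3.76, 4.57 and 2.32 at GD15, at least 108-fold higher. The days were far apart for each of the 6 genes, and the change of 9.85 for RBP7 was 9.23 without GD15 replicate 3. Others of the 14 largest rises were PLBD1, CBR1, ETNPPL, HP, LOC100523945, AQP8, FNTA and THY1. The change of THY1, 7.07, was 6.01 without GD15 replicate 3 and 7.72 without GD15 replicate 2. The probe set named FNTA is H19 in the annotation of the study, and LOC100523945 is there the pepsinogen PGA5.

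The largest fall among the genes with 1 symbol was that of GSTA1, a glutathione transferase, which read 5.53, 5.59 and 6.22 at GD50, against 12.69, 12.65 and 12.43 at GD15 (at least 61.6-fold lower, adjusted p = 1.66e-08). The nucleoside carrier SLC28A3 read 5.77, 5.33 and 5.82 at GD50, against 12.35, 12.09 and 12.55 at GD15, at least 51.5-fold lower. CYP26A1, the hydroxylase that clears retinoic acid, read 2.71, 3.11 and 2.93 at GD50, against 11.94, 11.08 and 11.43 at GD15, at least 28.6-fold lower. For these genes even the brightest GD50 array was under 100. STC1, the stanniocalcin of the uterine glands, read 6.97, 7.07 and 7.45 at GD50, against 11.96, 11.94 and 11.92 at GD15 (27.4-fold lower). FGF7, keratinocyte growth factor, read 5.09, 5.16 and 5.23 at GD50, against 10.16, 10.36 and 11.40 at GD15, at least 15.9-fold lower. The lipocalin SAL1 read 4.35, 5.04 and 4.94 at GD50, against 10.40, 10.34 and 11.03 at GD15, at least 15.4-fold lower. The other 8 of the 14 were LOC100152327, LOC100510975, NAAA, PSAT1, GSTM3, NCALD, PHGDH and CCL28. LOC100152327 had the widest spread of them, with 6.66, 7.45 and 6.24 at GD50, against 13.05, 13.13 and 10.60 at GD15, and its change of -5.48 was -6.31 without GD15 replicate 3.

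**Figure D2:**
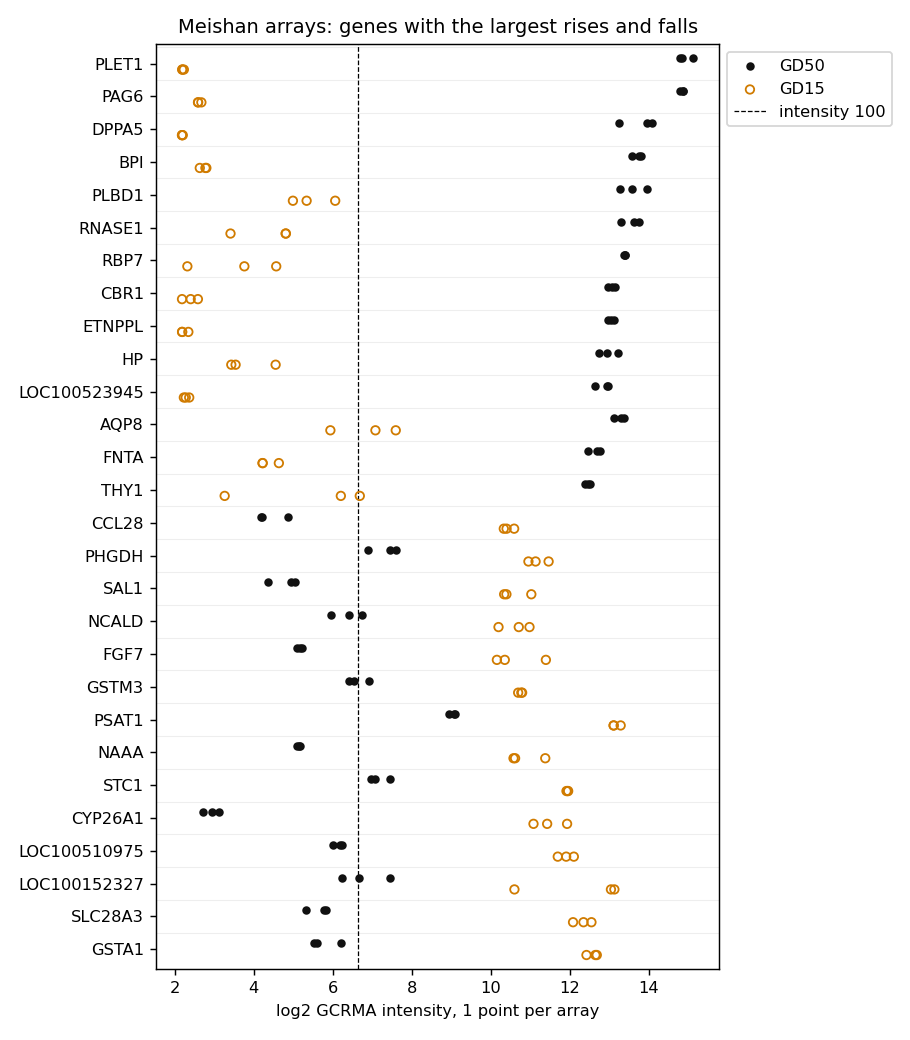
Log2 GCRMA intensity of the 14 genes with the largest rises and the 14 with the largest falls, with 1 point per array, filled for GD50 and open for GD15, and a dashed line at an intensity of 100. GD50 and GD15 arrays do not overlap for any of them, which is part of the rule by which they were chosen, and 12 rises and 8 falls are bounded by the line.

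Of 10 tested genes of the trophoblast and placenta list, 7 were higher and none lower. The median change was 7.59, or 3.63 with values under 100 set to 100. All 7 were at or under 100 on every GD15 array, so they passed the filter through GD50 alone, which fixed their direction, and their count is no result. The glycoprotein PPAG3 read 11.62, 12.03 and 11.64 at GD50, against 2.54, 2.18 and 2.18 at GD15, at least 34.8-fold higher, and the trophoblast transcription factor GATA3 9.12, 9.16 and 8.09 at GD50, against 3.21, 2.80 and 3.22 at GD15. The imprinted retrotransposon-derived gene PEG10 read 8.44, 8.30 and 8.15 at GD50, against 4.26, 3.72 and 4.32 at GD15, at least 3.14-fold higher. That the days did not overlap for these transcripts was fixed by the filter as well. ETNPPL, a phospholyase that degrades phosphoethanolamine, read 13.13, 12.98 and 13.05 at GD50, against 2.34, 2.18 and 2.18 at GD15, with a GD26 mean of 2.19. GATA2, CYP19A3 and TFPI2 were not called, at 8.44, 7.05 and 9.78 at GD50 and 8.51, 7.20 and 9.38 at GD15. Another 8 list genes were on the array and not tested, among them CYP19A1, GCM1 and PEG3, all under 100. The summed linear intensity of the 10 genes was 81070 to 98027 at GD50 and 1006 to 1553 at GD15. PLAC1, a placental gene chosen after its values were seen, read 10.76, 10.74 and 10.13 at GD50, against 3.58, 3.17 and 2.94 at GD15. RNA of trophoblast in the GD50 samples and expression in the endometrium cannot be told apart in these arrays, and the part of such RNA in the changes below was not tested. In bulk tissue, a change in the number of cells of a type and a change in RNA per cell cannot be told apart either.

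In the list of steroid synthesis and conversion, 12 of 19 tested genes were higher and 2 lower, with a median change of 1.60. STAR, which carries cholesterol into mitochondria, read 10.09, 10.31 and 9.46 at GD50, against 2.91, 2.18 and 2.18 at GD15, at least 9.91-fold higher. CYP11A1, the side-chain cleavage enzyme that makes pregnenolone, read 9.80, 10.33 and 9.68 at GD50, against 2.25, 2.47 and 2.18 at GD15, at least 9.82-fold higher. HSD3B1, the next step toward progesterone, read 8.83, 9.63 and 8.17 at GD50, against 2.38, 2.39 and 2.73 at GD15, at least 4.70-fold higher. No GD15 array exceeded 2.91 for the 3 genes, and all GD50 arrays were above 100. They thus passed the filter through GD50 alone, which fixed their direction, and their part in the count of 12 is no result. The electron suppliers of such enzymes also rose, FDX1 4.05-fold higher and POR 3.02-fold higher. Enzymes that convert hormones changed from a level measured on both days. HSD17B2, which oxidizes estradiol to estrone, read 12.41, 12.51 and 12.30 at GD50, against 9.20, 9.03 and 9.02 at GD15, 10.01-fold higher (adjusted p = 2.7e-08). HSD11B1 and HSD11B2, which activate and inactivate cortisol, averaged 10.83 and 10.62 at GD50 against 7.48 and 7.18 at GD15 (10.2-fold higher and 10.9-fold higher). The days were separate for these converting enzymes. HSD17B12, HSD17B4 and SULT2A1 were 2.68-, 3.03- and 3.43-fold higher. The falls were TSPO, an outer mitochondrial membrane protein, 3.44-fold lower, and the glucuronosyltransferase UGT2B31, at least 3.26-fold lower.

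Of 13 genes of the hormone-receptor list on the array, 5 were tested, of which 4 were lower and none higher. None of the 4 is a nuclear hormone receptor. ESR1, ESR2, PGR, NR3C1, PRLR and OXTR did not meet the filter, and these dim probe sets did not share a direction. OXTR read between 6.33 and 6.95 at GD50 and between 3.05 and 3.94 at GD15, whereas PGR was dimmer at GD50, as given above. PGRMC1, a membrane heme-binding protein linked to progesterone, read 11.12, 11.25 and 11.35 at GD50, against 13.26, 13.60 and 13.37 at GD15, 4.50-fold lower. FKBP5, a glucocorticoid- and progesterone-responsive co-chaperone, read 8.21, 8.14 and 7.88 at GD50, against 11.03, 11.03 and 10.97 at GD15, 7.63-fold lower. The coactivator NCOA1 was 2.57-fold lower on arrays that did not overlap. FKBP4, a chaperone of steroid receptors, was 2.08-fold lower, and its change of -1.05 shrank to -0.92, under the 2-fold limit, when GD15 replicate 2 was left out, to -0.93 without GD50 replicate 2 and to -0.96 without GD15 replicate 1.

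Uterine secretory genes of the histotroph were mostly higher at GD50, with 14 of 26 higher, 3 lower and a median change of 1.14, or 1.10 with values under 100 set to 100. Uteroferrin (ACP5), the iron-bearing acid phosphatase of the glands, was already among the brightest transcripts, at 15.34, 15.38 and 15.53 at GD50, against 14.09, 14.24 and 14.03 at GD15 (2.46-fold higher). Osteopontin (SPP1), an adhesion protein of the luminal epithelium, read 15.57, 15.60 and 15.54 at GD50, against 13.15, 13.62 and 9.98 at GD15, 10.02-fold higher (adjusted p = 0.00382). The uteroferrin-associated serpin UABP-2 read 15.14, 15.24 and 15.31 at GD50, against 12.72, 12.63 and 13.22 at GD15, 5.19-fold higher. Days did not overlap for any of these, although GD15 replicate 3 was far below the other GD15 arrays for SPP1, whose change of 3.32 was 2.19 without that array and 4.01 without GD15 replicate 2. Antiproteases rose as well. SLPI read 15.79, 15.79 and 15.89 at GD50, against 12.99, 13.14 and 12.70 at GD15 and WFDC2 14.90, 15.02 and 15.06 at GD50, against 11.99, 11.47 and 10.43 at GD15, which made them 7.35- and 12.99-fold higher, and the cystatin CST6 was 5.37-fold higher. Progranulin (GRN), a growth factor of epithelia, read 14.74, 14.82 and 14.76 at GD50, against 10.64, 10.37 and 9.92 at GD15, 22.1-fold higher (adjusted p = 1.78e-07). Retinol-binding protein RBP4, a major secretion of the pig uterus, averaged 14.19 at GD50 and 14.62 at GD15 and was not called. The folate receptor FOLR1 was split between its probe sets, since the brighter one averaged 11.1 at GD50 and 11.4 at GD15 and was not called, whereas the other averaged 11.3 at GD50 and 2.69 at GD15. The 3 falls were SAL1, STC1 and FGF7, given above.

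Of 23 lysosomal proteins and protease inhibitors tested, 12 were higher and 1 lower, with a median change of 1.24. Cathepsin Z (CTSZ) read 13.91, 13.32 and 14.08 at GD50, against 10.34, 10.29 and 9.09 at GD15, 14.6-fold higher, and did not overlap between days. Cathepsin C (CTSC), which activates serine proteases of leukocytes, was 5.11-fold higher, the asparaginyl protease legumain (LGMN) 4.34-fold higher, CTSH 4.30-fold higher, CTSD 3.34-fold higher and CTSB 2.94-fold higher. The glycosidases HEXA, GLA and GUSB were 4.46-, 5.20- and 4.19-fold higher. CTSK, CTSS and CTSV averaged 10.16, 11.16 and 12.25 at GD50 and 10.35, 11.24 and 12.15 at GD15 and were not called. NAAA, an acid amidase that degrades N-acylethanolamines, was the fall, with 5.14, 5.08 and 5.16 at GD50, against 11.38, 10.62 and 10.58 at GD15 (at least 18.6-fold lower). Further hydrolases outside the list, chosen after their values were seen, were GLB1, 18.5-fold higher, NEU1, 8.24-fold higher, DNASE2, 10.7-fold higher, and SMPDL3A, 12.4-fold higher. The list shares GRN, CST3, CST6, CTSB and CTSH with the histotroph genes. Macrophages also express these enzymes: of 10 tested macrophage and neutrophil markers, 5 were higher and none lower, and their summed intensity was 16096 to 18154 at GD50 and 2401 to 7057 at GD15. The largest change among the tested markers was that of CHI3L1, a chitinase-like protein, with 13.01, 12.71 and 12.96 at GD50, against 8.49, 7.69 and 6.91 at GD15. CD14 and ITGAM, which were not tested, stayed at no more than 7.06 and 2.23 on any array. The part of macrophages in the lysosomal change was not tested.

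All 5 tested genes of the insulin-like growth factor (IGF) list were called, 3 higher and 2 lower. The falls were those of IGF1 and STC1. IGF1, the ligand that the cyclic and early pregnant endometrium makes, read 3.73, 3.84 and 3.73 at GD50, against 8.20, 8.56 and 8.01 at GD15, at least 3.06-fold lower. IGF2, the fetal ligand, read 10.39, 10.50 and 9.92 at GD50, against 6.67, 6.37 and 6.53 at GD15, 13.4-fold higher (adjusted p = 9.38e-05). The carrier IGFBP2 read 15.07, 15.14 and 15.19 at GD50, against 10.35, 10.31 and 8.99 at GD15, 38.00-fold higher, and IGFBP6 8.18, 7.80 and 8.55 at GD50, against 5.58, 5.20 and 5.20 at GD15. A probe set with the name IGFBP3 only in the annotation of the study, chosen after its values were seen, read 11.75, 11.79 and 11.71 at GD50, against 3.26, 3.44 and 3.86 at GD15, at least 34.4-fold higher. Ligand and carriers were separate between the days on every array, which the filter fixed for IGF1, IGFBP6 and the IGFBP3 probe set. The receptor IGF1R was under 100 on all 6 arrays and was not tested.

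**Figure D3:**
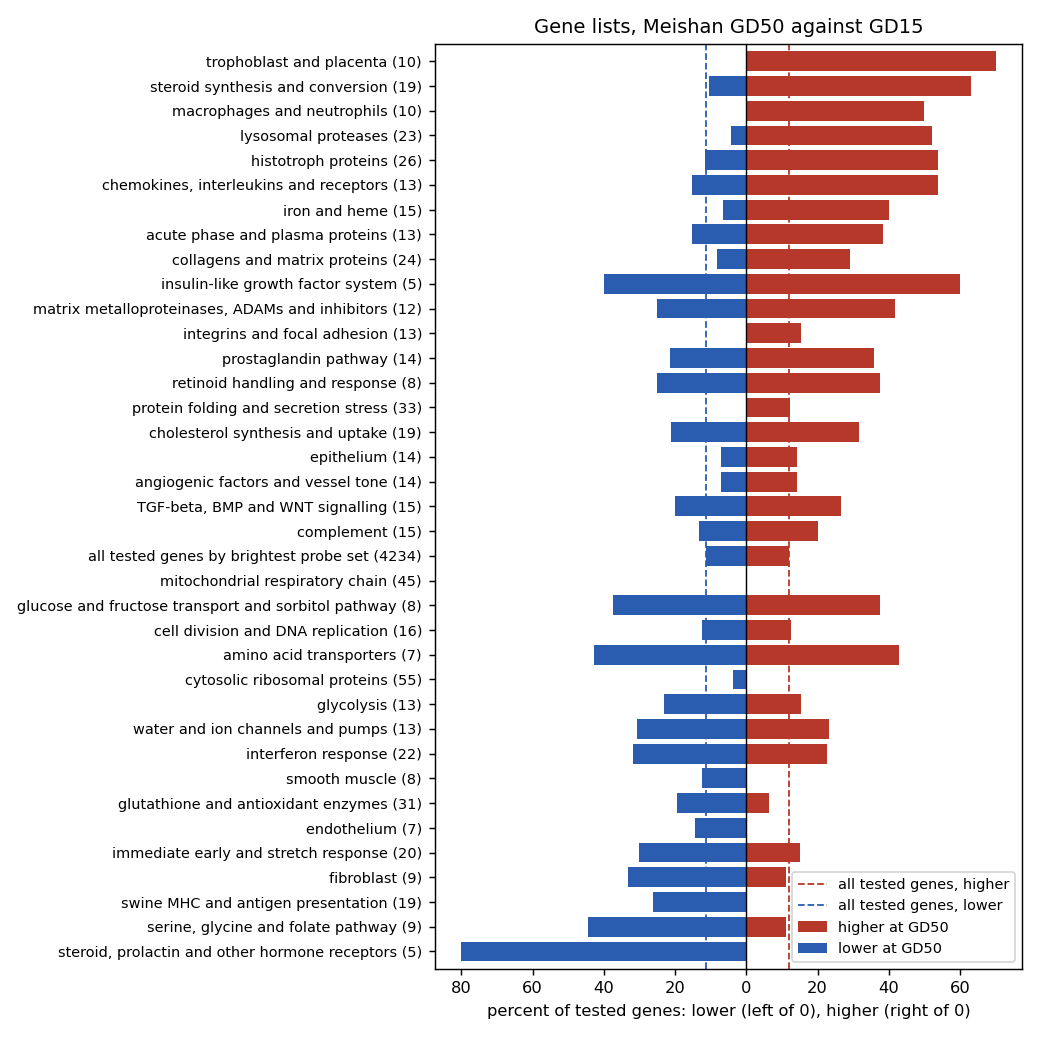
Percent of the tested genes of each list (number tested in parentheses) that were higher at GD50 (red, right) or lower (blue, left), ordered by the difference, with dashed lines at the 11.9% higher and 11.3% lower of all 4234 genes. The 12 of 19 steroid-synthesis genes that were higher stand near the top and include STAR, CYP11A1 and HSD3B1. Those named, like the 7 higher genes of the trophoblast bar, passed the filter through GD50 alone. No respiratory-chain gene of 45 was called.

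Sugar carriers of the same family changed in opposite directions. The fructose carrier SLC2A5 read 12.45, 12.37 and 12.43 at GD50, against 2.94, 2.88 and 2.67 at GD15, at least 54.7-fold higher (adjusted p = 1.34e-09). The glucose carrier SLC2A3 read 11.53, 11.87 and 11.50 at GD50, against 7.88, 8.23 and 8.14 at GD15, 11.7-fold higher, and SLC2A12 was 14.6-fold higher. In the other direction, SLC2A1, the main basal glucose carrier, read 11.68, 11.60 and 11.50 at GD50, against 13.21, 13.27 and 12.85 at GD15, 2.85-fold lower. The sodium-coupled glucose carrier SLC5A1 read 3.61, 4.03 and 5.002 at GD50, against 9.64, 9.78 and 9.59 at GD15, at least 8.15-fold lower, and SLC2A8 was 3.31-fold lower. GD50 and GD15 arrays did not overlap for any of the 6, which the filter fixed for SLC2A5 and SLC5A1. The list was even, with 3 of 8 higher and 3 lower. Sorbitol dehydrogenase (SORD), which makes the fructose that fills pig fetal fluids, averaged 9.08 at GD50 and 8.66 at GD15 and was not called (adjusted p = 0.065). A probe set with the study's name AKR1B1, aldose reductase, chosen after its values were seen, read 14.17, 14.35 and 14.02 at GD50, against 10.18, 9.72 and 9.90 at GD15, 18.98-fold higher.

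Amino acid carriers were likewise even, with 3 of 7 higher and 3 lower. SLC1A5, a carrier of glutamine and other neutral amino acids, read 10.14, 10.24 and 10.28 at GD50, against 6.98, 7.17 and 6.75 at GD15, 9.53-fold higher. SLC3A1 read 11.05, 10.99 and 10.79 at GD50, against 6.42, 6.51 and 5.90 at GD15, at least 19.6-fold higher, while its partner in cystine transport, SLC7A9, read 2.57, 2.94 and 2.26 at GD50, against 9.25, 8.95 and 8.98 at GD15, at least 5.35-fold lower. The days were separate for each, in opposite directions for the partners, whose separation the filter fixed. SLC38A1 was 3.42-fold lower. SLC1A3 was called higher at 5.49, but with values under 100 set to 100 it changed by 1.09 and was not called (adjusted p = 0.0589 in limma). The enzymes of serine synthesis were all lower. PHGDH, which draws on a glycolytic intermediate, read 6.89, 7.59 and 7.44 at GD50, against 11.47, 11.14 and 10.96 at GD15, 14.7-fold lower. PSAT1, the transaminase, read 9.07, 9.09 and 8.95 at GD50, against 13.29, 13.11 and 13.12 at GD15, 17.6-fold lower. PSPH, the phosphatase, read 11.18, 11.21 and 11.22 at GD50, against 14.36, 14.19 and 14.68 at GD15, 9.24-fold lower. All 3 were separate between days with little scatter. Asparagine synthetase (ASNS) was the 1 member of that list of 9 to rise, 3.61-fold higher, and the folate enzymes MTHFD1 and MTHFD2 were not called, at 8.46 and 8.99 at GD50 and 7.80 and 8.70 at GD15.

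Of 13 water and ion channel genes, 3 were higher and 4 lower. Aquaporin AQP8 read 13.13, 13.29 and 13.38 at GD50, against 7.59, 7.08 and 5.94 at GD15, 84.1-fold higher, whereas AQP11 was 5.27-fold lower and AQP1, the aquaporin of vessels, 2.36-fold lower. FXYD2, a regulatory subunit of the sodium pump, read 5.27, 5.23 and 6.49 at GD50, against 9.78, 9.61 and 10.12 at GD15, at least 9.14-fold lower, and the pump subunit ATP1B1 was 7.31-fold lower. The calcium-binding protein S100G was 3.83-fold higher, and the calcium channel TRPV6 averaged 12.91 at GD50 and 12.65 at GD15 and was not called. Chosen after their values were seen, the ammonia channel RHBG read 10.31, 10.42 and 10.16 at GD50, against 5.63, 5.64 and 5.06 at GD15, at least 12.6-fold higher, and MFSD2A, which carries lysophospholipids, 8.90, 9.23 and 9.19 at GD50, against 2.60, 3.23 and 3.07 at GD15, at least 5.52-fold higher.

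Retinoid genes changed in both directions, 3 of 8 higher and 2 lower, with the directions of RBP7 and CYP26A1 fixed by the filter. Beside RBP7 and CYP26A1, given above, ALDH1A1, a retinaldehyde dehydrogenase, read 9.73, 9.80 and 10.13 at GD50, against 11.96, 11.96 and 11.75 at GD15, 4.02-fold lower, and the retinoid-induced RARRES1 read 13.22, 12.51 and 12.71 at GD50, against 9.71, 9.31 and 10.60 at GD15, 7.69-fold higher. RDH11 and RARRES2 averaged 10.49 and 10.76 at GD50 and 9.82 and 10.72 at GD15 and were not called. A probe set named TRIM16 by the study, chosen after its values were seen, read 6.57, 5.82 and 6.44 at GD50, against 11.11, 11.15 and 10.95 at GD15, at least 21.5-fold lower.

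Carbonyl reductase CBR1, which can convert prostaglandin E2, read 13.16, 13.07 and 12.98 at GD50, against 2.40, 2.18 and 2.58 at GD15, at least 85.9-fold higher (adjusted p = 2.34e-11). Its relative CBR2 read 3.04, 3.29 and 3.71 at GD50, against 7.57, 8.81 and 7.66 at GD15, at least 2.58-fold lower. In the prostaglandin list of 14 genes, 5 were higher and 3 lower. CBR1 and CBR2 passed the filter through 1 day alone, which fixed their direction, so their part in this count is no result. The terminal synthase PTGES read 10.56, 11.37 and 10.61 at GD50, against 8.80, 8.93 and 8.80 at GD15, 4.01-fold higher, and the receptor PTGFR was 3.27-fold higher. Cyclooxygenase PTGS2 read 9.40, 9.46 and 8.70 at GD50, against 9.84, 9.17 and 10.78 at GD15 and was not called (adjusted p = 0.111), but was lower, at -1.12, without GD15 replicate 2. PLA2G7, which hydrolyses platelet-activating factor, was 2.87-fold lower. PTGDS was called at 1.15, and no leave-out of a single array kept that call, with changes between 1.02 and 1.26 and adjusted p between 0.0556 and 0.106.

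Of 19 cholesterol and lipid genes 6 were higher and 4 lower. The isoprenoid and squalene enzymes FDPS and FDFT1 read 10.74, 10.71 and 10.57 at GD50, against 12.32, 12.29 and 12.33 at GD15, and 10.19, 10.18 and 10.02 at GD50, against 12.50, 12.43 and 12.41 at GD15, and were 3.12- and 4.98-fold lower. CH25H, which makes 25-hydroxycholesterol, read 6.40, 6.70 and 6.79 at GD50, against 8.86, 8.83 and 9.07 at GD15, 4.90-fold lower. Days did not overlap in the 3 genes. HMGCS1, at the start of the pathway, was 3.19-fold higher, the desaturase SCD 5.93-fold higher, and the lysosomal cholesterol exporters NPC1 and NPC2 5.82- and 3.18-fold higher. SQLE and MSMO1, of the later steps, averaged 9.94 and 11.17 at GD50 and 10.38 and 11.11 at GD15 and were not called. Of 31 glutathione and antioxidant genes 23 were not called and 6 were lower, among them GSTM3, 17.6-fold lower, GSTA4, 2.88-fold lower, and MGST1, 2.25-fold lower. The glutathione-degrading GGT1 rose, with 7.81, 8.22 and 8.18 at GD50, against 4.79, 4.47 and 4.08 at GD15, at least 2.69-fold higher.

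Several plasma-type proteins were higher at GD50. Haptoglobin (HP), which binds free hemoglobin, read 12.96, 12.74 and 13.23 at GD50, against 3.43, 4.55 and 3.54 at GD15, at least 80.6-fold higher, with a GD26 mean of 3.76. LBP, which hands lipopolysaccharide to CD14, read 9.10, 8.98 and 9.45 at GD50, against 2.19, 2.19 and 2.19 at GD15, at least 5.79-fold higher, with a GD26 mean of 2.24. Complement factor CFB read 10.31, 10.51 and 10.36 at GD50, against 5.66, 5.66 and 4.54 at GD15, at least 13.4-fold higher. These were separate between days on all arrays, which the filter fixed, since all GD15 arrays were under 100. The serpin SERPINA3-2 varied more, with 12.36, 13.05 and 12.25 at GD50, against 6.80, 8.88 and 3.71 at GD15 (67.8-fold higher, adjusted p = 0.000573), and its change of 6.08 was 4.71 without GD15 replicate 3 and 7.29 without GD15 replicate 2. SERPINA1, antitrypsin, read 8.72, 9.03 and 8.74 at GD50, against 2.19, 2.18 and 2.18 at GD15, with an adjusted p of 0.014, and was not called with values under 100 set to 100 (adjusted p = 0.143). APOA1 was 2.24-fold lower. Of the 13 genes, 5 were higher and 2 lower. A probe set with the study's name CP (ceruloplasmin), chosen after its values were seen, was 31.2-fold higher. In the iron and heme list, 6 of 15 were higher and 1 lower. Ferrochelatase (FECH), the last step of heme synthesis, read 11.16, 11.42 and 11.35 at GD50, against 8.998, 8.92 and 8.75 at GD15, 5.36-fold higher, and the metalloreductases parted, STEAP4 4.55-fold higher and STEAP1 5.05-fold lower. Ferritin was bright and not called, with FTH1 and FTL at 14.53 and 14.46 at GD50 and at 14.85 and 14.95 at GD15.

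Of 13 tested chemokine and interleukin genes, 7 were higher and 2 lower. The cytokine IL6 read 9.61, 10.07 and 9.71 at GD50, against 3.27, 2.18 and 2.28 at GD15, at least 8.88-fold higher, and IL18 9.92, 10.06 and 9.96 at GD50, against 6.33, 6.57 and 5.92 at GD15, at least 10.1-fold higher. The chemokine CXCL14 read 12.06, 12.23 and 12.07 at GD50, against 8.34, 7.77 and 6.93 at GD15, 21.7-fold higher. For all 3, GD50 was above GD15 on every array, which the filter fixed for IL6 and IL18. CCL28, a mucosal chemokine that draws antibody-secreting cells, read 4.17, 4.21 and 4.86 at GD50, against 10.33, 10.40 and 10.59 at GD15, at least 13.9-fold lower. The joining chain of secreted antibodies, JCHAIN, read 4.62, 4.63 and 4.66 at GD50, against 9.92, 10.31 and 9.83 at GD15, at least 10.4-fold lower. Probe sets that only the study names, IGHM and IGHA2, the heavy chains of IgM and IgA, read 5.72, 5.92 and 5.35 at GD50, against 12.65, 13.09 and 10.36 at GD15, and 5.15, 5.15 and 5.72 at GD50, against 11.25, 11.53 and 10.33 at GD15, and were at least 41.9-fold and at least 20.97-fold lower. GD15 replicate 3 was the lowest GD15 array for both, and the change of -6.37 for IGHM was -7.21 without it. These antibody-related transcripts were lower on every GD50 array, which the filter fixed, since they were under 100 there. All but CCL28 and JCHAIN were chosen after their values were seen. Of 15 T and NK lymphocyte markers on the array 1 was tested, GNLY, a granule protein, with 7.04, 6.62 and 7.14 at GD50, against 9.33, 9.08 and 7.60 at GD15 (3.33-fold lower), while CD3D, CD3E, CD4, CD8A and PRF1 were all under 100. A probe set named TCRA by the study, chosen after its values were seen, read 7.31, 6.81 and 7.17 at GD50, against 11.29, 11.82 and 11.99 at GD15, 24.4-fold lower.

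Of 19 antigen-presentation genes 5 were lower and none higher, with a median change of -0.75. The class I gene SLA-3 read 11.20, 11.08 and 11.12 at GD50, against 12.97, 12.82 and 12.09 at GD15, 2.81-fold lower, and SLA-2 was 2.04-fold lower. The immunoproteasome subunit PSMB8 was 3.69-fold lower, and the invariant chain CD74 read 6.80, 6.18 and 6.90 at GD50, against 8.60, 8.86 and 7.81 at GD15, 3.46-fold lower. TAP1 was called at -1.06, but lost the call on leaving out any array other than GD15 replicate 3, with adjusted p between 0.0502 and 0.116. B2M, the light chain of class I, averaged 15.05 at GD50 and 15.12 at GD15. SLA-2 was under 2-fold without GD15 replicate 1 (-0.96) or 2 (-0.92) or without GD50 replicate 2 (-0.95). The class II genes SLA-DRA, SLA-DRB1, SLA-DQA1 and SLA-DQB1 were not called, with changes of -0.75, -0.59, -0.63 and -0.78. Without GD15 replicate 3, SLA-DRA, SLA-DQA1 and SLA-DQB1 passed the test as lower, at -1.24, -1.11 and -1.22.

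Interferon-response genes were split, with 5 of 22 higher and 7 lower. RSAD2, an antiviral enzyme, read 9.73, 9.78 and 9.68 at GD50, against 7.77, 7.56 and 5.71 at GD15, 6.59-fold higher. ISG15, a ubiquitin-like protein, read 12.75, 12.93 and 13.01 at GD50, against 11.55, 11.32 and 9.10 at GD15, 4.73-fold higher (adjusted p = 0.00633). The RNA sensor DDX58 was 2.85-fold higher. Lower were the guanylate-binding proteins GBP1, with 8.21, 7.90 and 7.68 at GD50, against 11.33, 11.79 and 9.68 at GD15 (8.01-fold lower), and GBP2, at least 2.69-fold lower, with IRF1, 2.50-fold lower, and IRF2, 2.56-fold lower. IFNG, interferon gamma, was at no more than 2.38 on any array. IFIT1 was called at 1.14, and was 0.84 without GD15 replicate 3. The same array moved ISG15 to 1.46, RSAD2 to 2.07, GBP1 to -3.63 and GBP2 to -2.69 on leaving it out, against changes of 2.24, 2.72, -3.002 and -2.03 on all arrays, and all 4 were still called. In the complement list 3 of 15 were higher and 2 lower, with the membrane regulator CD55 at 12.18, 12.04 and 12.14 at GD50, against 8.59, 8.60 and 8.30 at GD15 (12.3-fold higher), C4A 2.71-fold lower and CFD 3.24-fold lower.

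Among matrix-cleaving enzymes and their inhibitors, 5 of 12 were higher and 3 lower. Matrilysin (MMP7), an epithelial protease, read 11.28, 11.52 and 11.11 at GD50, against 5.09, 5.54 and 4.33 at GD15, at least 25.3-fold higher (adjusted p = 5.34e-08), and ADAM9 was 6.59-fold higher. MMP2, a stromal gelatinase, read 8.48, 8.64 and 8.79 at GD50, against 10.15, 10.30 and 10.11 at GD15, 2.94-fold lower, and ADAMTS1 was 2.54-fold lower. The matrix list had 7 of 24 higher and 2 lower. Thrombospondin (THBS1) read 12.29, 11.75 and 12.15 at GD50, against 6.79, 7.502 and 8.89 at GD15, 20.2-fold higher, and matrix Gla protein (MGP), an inhibitor of calcification, 14.60, 14.45 and 14.43 at GD50, against 10.79, 10.58 and 10.98 at GD15, 13.1-fold higher. Fibronectin (FN1) was 2.51-fold higher, and COL6A3 2.79-fold lower. DCN, SPARC, LUM and FBN1, bright stromal matrix genes, changed by 0.004, -0.21, -0.47 and 0.07 and were not called. Of 13 integrin and focal-adhesion genes, ITGB3 and PARVA rose and none fell. ITGB3 read 9.40, 9.25 and 9.31 at GD50, against 5.53, 6.001 and 5.54 at GD15, at least 6.40-fold higher, with a GD26 mean of 6.06. Its direction was fixed by the filter, since all its GD15 arrays were under 100. A probe set named CTGF by the study, a matricellular growth factor, was chosen after its values were seen. It read 10.06, 9.66 and 10.45 at GD50, against 12.85, 13.06 and 13.52 at GD15, 8.49-fold lower.

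Vessel and growth signals were mostly uncalled. VEGFA read 11.05, 11.08 and 11.21 at GD50, against 9.68, 9.98 and 9.70 at GD15, 2.51-fold higher, and was 1 of 2 higher among 14 angiogenic genes, judged on this probe set, with DLL4, a Notch ligand of sprouting endothelium, the 1 lower at 6.50, 6.13 and 6.85 at GD50, against 8.66, 8.56 and 9.15 at GD15 (4.91-fold lower). Of the other probe sets of VEGFA, one was higher as well, with means of 7.36 at GD50 and 5.24 at GD15, and one was not called, with means of 10.11 at GD50 and 10.31 at GD15 (adjusted p = 0.596). Of 7 endothelial markers 6 were not called, with PECAM1 and VWF at 9.40 and 10.11 at GD50 and at 8.78 and 10.50 at GD15. Of 15 genes of TGF-beta, BMP and WNT signalling, 4 were higher and 3 lower. Follistatin (FST), which binds activin, read 2.96, 5.11 and 3.76 at GD50, against 9.11, 9.31 and 9.39 at GD15, at least 6.17-fold lower. MSX1 read 8.13, 7.88 and 7.97 at GD50, against 10.19, 9.76 and 9.90 at GD15, 3.89-fold lower. BMP4 was called at -1.06, which shrank to -0.92 without GD15 replicate 2 and to -0.87 without GD50 replicate 2. BMP7 read 7.51, 7.13 and 7.58 at GD50, against 3.77, 2.80 and 3.31 at GD15, at least 1.70-fold higher, and the WNT receptor FZD4 was 3.10-fold higher. With values under 100 set to 100, BMP7 and TGFB3, both among the 4, changed by 0.76 and 0.72 and were not called. Among 20 immediate early and stretch-response genes, 3 were higher and 6 lower. ANKRD1, a stretch-responsive gene of muscle, read 8.26, 7.92 and 7.77 at GD50, against 2.18, 2.18 and 2.18 at GD15, at least 2.53-fold higher, with a GD26 mean of 2.18. ATF3 was 3.21-fold higher, and GADD45A and IER3 were 3.54- and 3.82-fold lower. Of 20 tested genes of interest that had been picked on these same arrays, 7 were higher and 7 lower, which is no independent evidence of their direction.

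Housekeeping genes were mostly uncalled. None of 45 respiratory-chain genes was called, and their changes had a median of -0.14. Of 55 cytosolic ribosomal protein genes, 2 were called, RPL31 at 3.39-fold lower and RPL9 at 2.14-fold lower, and the median was -0.47, against -0.08 over all 4234 genes. Of 33 genes of protein folding and secretion stress 4 were higher, among them the endoplasmic-reticulum proteins SDF2L1, 3.48-fold higher, DNAJC3, 2.65-fold higher, and CRELD2, 2.50-fold higher, while the chaperone HSPA5 averaged 12.73 at GD50 and 12.59 at GD15. Cell-division genes were 2 higher and 2 lower of 16, and PCNA, a replication clamp, averaged 9.19 at GD50 and 8.26 at GD15, 1.90-fold apart and just short of the 2-fold limit (adjusted p = 0.000381), which it passed, at 1.03, without GD15 replicate 2. In glycolysis PFKP read 7.34, 7.07 and 7.17 at GD50, against 10.06, 9.86 and 10.08 at GD15, 7.001-fold lower, and the lactate dehydrogenase LDHA was 3.46-fold higher, with 2 of 13 higher and 3 lower. GAPDH averaged 13.59 at GD50 and 13.22 at GD15 and was not called. Smooth muscle markers were mostly uncalled, 7 of 8, with ACTA2 at 13.15 at GD50 and 12.65 at GD15, as were 11 of 14 epithelial markers. A probe set of the smooth muscle gene ACTG2 that the list does not count averaged 7.075 at GD50 and 8.724 at GD15. It was called lower (adjusted p = 0.0103). Among 9 fibroblast markers 3 were lower and 1 higher, and their summed intensity was 48388 to 56862 at GD50 and 38401 to 41353 at GD15. MFAP5 read 8.01, 7.66 and 8.22 at GD50, against 11.07, 10.37 and 10.45 at GD15 (6.35-fold lower). The higher one was THY1, whose brightest probe set changed by 5.31, or by 4.59 without GD15 replicate 3.

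A further 443 of the higher and 624 of the lower probe sets had no single symbol. Some carry a name in the annotation of the study, and the following were chosen after their values were seen. NMU, the neuropeptide neuromedin U, read 2.93, 3.42 and 3.36 at GD50, against 13.89, 13.44 and 14.61 at GD15 (at least 161-fold lower, adjusted p = 1.84e-07), a larger bound than that of any fall with a symbol. The amino acid carrier SLC16A10 read 3.35, 3.16 and 3.16 at GD50, against 9.51, 10.44 and 11.002 at GD15, at least 12.8-fold lower, and the cystine carrier SLC7A11 was 8.89-fold lower. The tight-junction gene CLDN10 read 4.39, 4.03 and 4.11 at GD50, against 9.48, 10.08 and 10.74 at GD15, at least 10.96-fold lower. For none of these did a GD50 array reach a GD15 array, which the filter fixed for NMU, SLC16A10 and CLDN10. LTBP1, which holds latent TGF-beta in the matrix, was 14.9-fold higher.

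Other genes with a symbol stood outside the lists and were likewise chosen after their values were seen. TMEM45A, a membrane protein, read 12.51, 12.75 and 12.24 at GD50, against 7.10, 6.94 and 7.03 at GD15, 44.5-fold higher. CITED1, a transcriptional coregulator of the placenta, read 12.52, 12.77 and 12.09 at GD50, against 7.75, 7.85 and 7.53 at GD15, 26.9-fold higher. DPP4, a surface peptidase, read 11.04, 11.37 and 11.25 at GD50, against 6.94, 7.87 and 5.54 at GD15, 21.6-fold higher, and had its highest mean at GD26 (13.38). Its change of 4.43 was 3.81 without GD15 replicate 3. No GD15 array reached a GD50 array for the 3 genes. Malic enzyme (ME1), a source of NADPH, read 10.95, 11.30 and 10.87 at GD50, against 5.17, 5.87 and 5.77 at GD15, at least 21.05-fold higher, and the membrane glycoprotein PDPN 10.75, 10.34 and 10.27 at GD50, against 5.11, 5.46 and 4.86 at GD15, at least 14.01-fold higher. Among the falls, IL11RA, the receptor of a cytokine needed for decidua formation in the mouse, read 6.68, 6.91 and 6.95 at GD50, against 10.06, 10.64 and 10.18 at GD15, 10.9-fold lower. CDO1, cysteine dioxygenase, read 7.99, 7.64 and 8.68 at GD50, against 11.04, 11.22 and 12.25 at GD15, 10.5-fold lower. CDH13, a cadherin without a cytoplasmic tail, read 9.44, 8.90 and 9.94 at GD50, against 12.14, 12.38 and 12.70 at GD15, 7.91-fold lower, and the alkaline phosphatase ALPL 5.93, 6.12 and 7.43 at GD50, against 9.89, 9.64 and 9.80 at GD15, 9.77-fold lower. The mucin MUC4 read 7.98, 7.37 and 7.82 at GD50, against 10.13, 9.78 and 9.78 at GD15, 4.51-fold lower, and thus lay above 100 on both days.

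Where a gene had several tested probe sets, they did not always give the same call. Of 650 such genes, 121 were called on some of their probe sets and not on all, and 4 were called in both directions, namely ATP2A2, EF1ALPHA, NDUFS3 and SEPT7. All 3 probe sets of PAG6 were higher, as were those of THY1, a surface glycoprotein of fibroblasts, while RPL9 was called on 1 of 2.

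The GD26 arrays show the levels between the days compared. Of the 14 largest rises, 7 were already within 1 log2 unit of their GD50 mean at GD26, and 2, ETNPPL and HP, were then still under 100 on all arrays. Of the 14 largest falls, 6 were under 100 on all GD26 arrays, and 4 had a GD26 mean below that of GD50. PLET1 averaged 2.20, 14.74 and 14.93 at GD15, GD26 and GD50, and STAR 2.42, 10.60 and 9.95. SLC2A5 had its GD26 mean between the others, at 2.83, 8.33 and 12.42, as did IGFBP2, at 9.88, 13.09 and 15.13. AOAH, an enzyme that inactivates lipopolysaccharide, was 5.81, 3.64 and 10.30, so it lay under 100 on both earlier days. CYP26A1 and FGF7 averaged 3.59 and 5.30 at GD26, whereas GSTA1 was then at 9.68 and STC1 at 9.22, between their GD15 and GD50 levels. For a pair of cell-division transcripts the GD26 mean was the highest of the 3 days: CCNB1 averaged 6.76, 9.76 and 7.83, and TOP2A 6.96, 9.53 and 7.85. TOP2A, uncalled at 0.89, passed the test without GD15 replicate 1 (1.09) or GD50 replicate 3 (1.07). The call of CCNB1 at GD50, at 1.07, slipped under 2-fold without GD50 replicate 1 (0.96) or replicate 2 (0.93).

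**Figure D4:**
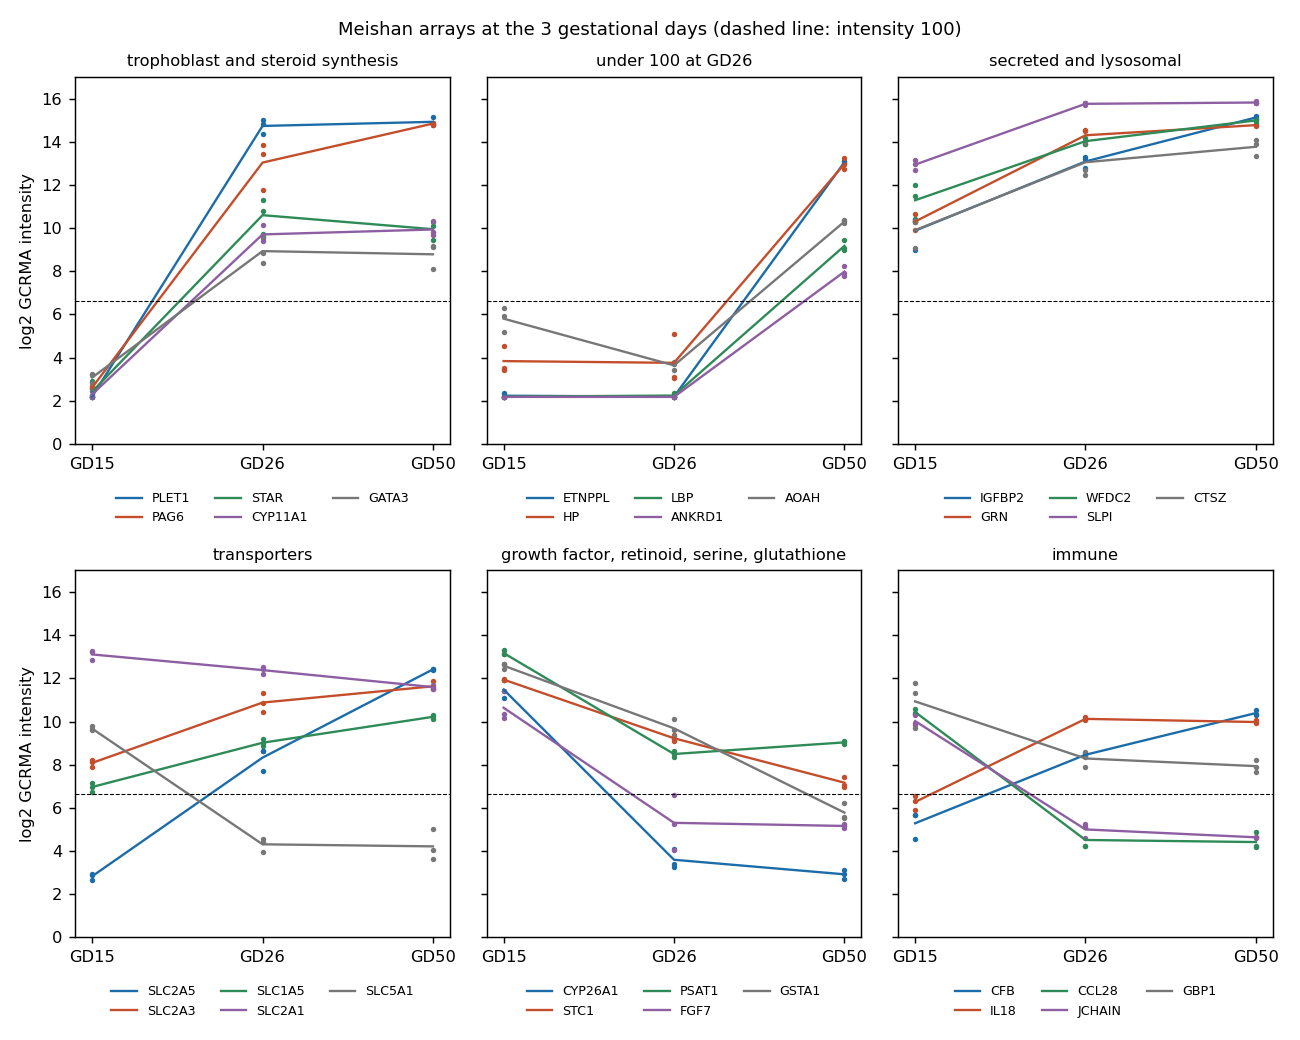
Log2 GCRMA intensity of 30 genes on the Meishan arrays at GD15, GD26 and GD50, with 1 point per array, lines through the means of 3 arrays and a dashed line at an intensity of 100. PLET1 and STAR are high by GD26, ETNPPL, HP, LBP and ANKRD1 only at GD50, and the GD26 points of SLC2A5 lie between those of the other days.

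The same contrast in Yorkshire gilts, with other animals and other arrays, was fitted with the arrays centred on their medians, since their medians over the tested probe sets were 7.81 to 8.06 at GD50 and 8.42 to 8.46 at GD15. The hybridization controls of these arrays averaged a log2 intensity of 12.74 to 13.67 at GD50 and 10.43 to 11.11 at GD15, and the part of this in the Yorkshire changes was not tested. Centred, 1675 of the 8993 probe sets (18.6%) were higher at GD50 and 1918 (21.3%) lower, against 1082 and 3111 as deposited, where the median change was -0.57. The probe sets higher in both breeds numbered 844, which is 77.0% of the Meishan and 50.4% of the Yorkshire ones, and those lower in both 878, which is 72.9% and 45.8%. In 17 and 21 cases a Meishan rise or fall stood against the opposite call in Yorkshire. All 14 of the largest Meishan rises were higher in Yorkshire, with adjusted p up to 1.18e-08, and all 14 of the largest falls lower, with adjusted p up to 4.94e-05. By limma's test of the difference, the change itself differed between the breeds for 1817 probe sets (20.2%), at an adjusted p under 0.05 and at least 2-fold. At an adjusted p under 0.05 alone it differed for 12 of these 28 genes, of which GSTM3, at 0.87, was under 2-fold. These shares rest on unlike thresholds and cannot be set against each other.

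Differences in which the sign turned were few among the listed genes. CD74 fell in Meishan and changed by 2.53 in Yorkshire on the centred scale, where its means before centring were 11.08 at GD50 and 9.05 at GD15. MFAP5, a microfibril protein, changed by 1.58 in Yorkshire against -2.67 in Meishan. ISG15 changed by -1.38 in Yorkshire and IFIT1 by -1.11, whereas both were higher at GD50 in Meishan. SLC1A1, a glutamate carrier, changed by 1.10 in Yorkshire and by -1.09 in Meishan, where it read 8.99, 9.08 and 9.07 at GD50, against 10.08, 10.11 and 10.24 at GD15. ITGB3, which rose in Meishan, changed by 0.01 in Yorkshire (adjusted p of the difference = 0.000157), and MSX1 by -0.14 (adjusted p of the difference = 0.000212). The paper instead reports for ITGB3 a pattern shared by the breeds, short of significance on the arrays and found again by quantitative RT-PCR. All Meishan GD15 arrays were under 100 for ITGB3. CFL1, BSG and EPAS1 were not called in Meishan, at 0.07, 0.51 and 0.56, and changed by 2.06, 2.24 and 2.22 in Yorkshire.

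**Figure D5:**
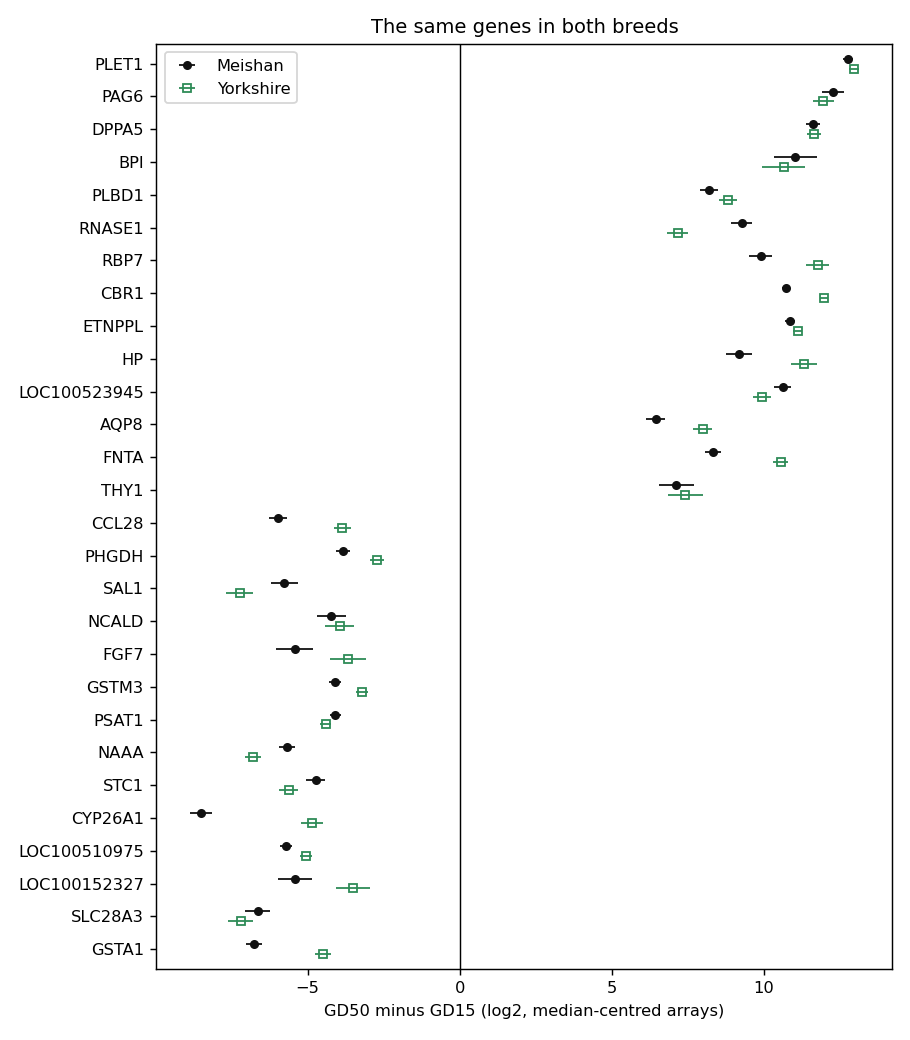
Change between GD50 and GD15 (log2, median-centred arrays) of the 14 genes with the largest Meishan rises and the 14 with the largest falls, in Meishan (filled circles) and Yorkshire (open squares), with the standard error of limma's fit over 18 arrays, 3 in each group, as bars. All 28 changes have the same sign in both breeds, and CYP26A1 shows the widest gap, 3.66 log2 units on the fitted values. All Meishan GD50 arrays were under 100 for CYP26A1, so the size of its gap was not measured.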

How the data were processed

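RNA of endometrium was hybridized to the porcine Affymetrix GeneChip, which reads each transcript through a probe set. The authors summarized each probe set with the affy and GCRMA packages of R, and the deposited table holds these log2 intensities of 24123 probe sets on 18 arrays, between 2.18 and 16.05. GCRMA corrects the background by probe sequence, so dim values end near the floor. The deposited arrays still differed in their medians, and total RNA per cell cannot be read. Depth has no counterpart on arrays, and the 3 arrays per group limit the precision.

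Controls (124 probe sets) were left out. Probe sets above an intensity of 100 on at least 3 of the 6 arrays were fitted with limma 3.58.1 in R 4.3.3 over the 9 Meishan arrays, with GD26 sharing the estimate of the spread. A probe set was called at a Benjamini-Hochberg adjusted p under 0.05 over the 8993 tested and a fold change of at least 2. Adjusted p-values in the text are those of this limma fit. A fold change is a ratio of mean intensities on the GCRMA scale. Where all 3 arrays of the dimmer day were at or under 100, the fold printed is that of the brighter day's mean over 100. Differences given in log2 units are fitted values without such a bound. The Yorkshire contrast and the difference between breeds (the change in Yorkshire less that in Meishan) came from 1 limma fit over all 18 arrays, each centred on its median.

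Symbols came from the platform annotation, which gave 1 symbol to 5035 of the tested probe sets, several to 109 and none to 3849. A gene is represented by its brightest probe set. The genes and lists, and the contrast itself, were chosen with earlier results of these data known. The text names the 14 top rises and the 14 top falls among called probe sets that have 1 symbol and arrays separate between the days, with values under 100 set to 100 for the ranking. It also names up to 4 genes per direction and list, the brightest markers, genes at defining steps of a pathway and genes that the paper names, and further genes as said beside them. The alternatives were another adjustment, no fold threshold, other filters, other samples in the fit, the replicate number as a block, other normalizations, a floor on dim values, a variance trend, gene means and leaving out each array. The limma scripts were tested on simulated data. Figures were drawn with matplotlib 3.10.9. Sequences are not used here.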

Additional observations from a re-analysis of the deposited data

Results flagged for a closer look

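The genes below were singled out because their change between GD50 and GD15 differed between the breeds, by the limma test of the difference over 18 median-centred arrays (adjusted p under 0.05), among the 28 genes with the largest Meishan changes, the called genes of opposite direction and the genes that the paper names. Each value, in log2 units, is the change in Yorkshire less that in Meishan, from 3 arrays per group that share 2 gilts, so breed and animal cannot be told apart. Values are fitted and hold no bound where a day was dim.

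Of the 14 largest Meishan rises, which were also called higher in Yorkshire, the difference was 2.22 for FNTA (H19 in the annotation of the study), 2.14 for HP, 1.88 for RBP7, 1.55 for AQP8, 1.25 for CBR1 and -2.11 for RNASE1. On the fitted values, only RNASE1 therefore had the smaller rise in Yorkshire among these 6. HP, RBP7, CBR1 and RNASE1 were under 100 on every Meishan GD15 array, so the size of their Meishan rises was not measured. Of the 14 largest falls, the difference was 3.66 for CYP26A1, 2.26 for GSTA1, 2.12 for CCL28, 1.11 for PHGDH, 0.87 for GSTM3 and -1.13 for NAAA. On the fitted values the first 5 thus fell less in Yorkshire and NAAA fell more. CYP26A1, GSTA1, CCL28 and NAAA were under 100 on every Meishan GD50 array, so the size of their Meishan falls was not measured.

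Opposite calls in the breeds gave 4.27 for CD74, 4.20 for MFAP5, 2.15 for SLC1A1, -2.30 for IFIT1 and -3.67 for ISG15. Among genes that the paper names, positive differences were found for CFL1 (1.94), MSX1 (1.77), BSG (1.68), EPAS1 (1.61), PFN2 (1.37) and HSD17B12 (1.13). The negative ones were those of HSD17B2 (-1.0), BMP4 (-1.65), S100A9 (-2.0) and ITGB3 (-3.67). For ITGB3 the paper instead reports, by quantitative RT-PCR, a pattern shared by the breeds. What set these differences was not tested.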

How the results depend on the processing

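The counts of 1096 higher and 1205 lower probe sets moved by over 1.5 times under 4 alternatives: with Bonferroni adjustment they were 501 and 397, with no fold threshold 2054 and 2701, with the filter met on all 6 arrays 535 and 677 of 6974, and with the mean of the probe sets of each gene 519 and 479 of 4234 genes. The last pair of alternatives tests fewer features by construction. Leaving out 1 array at a time gave 1070 to 1113 higher and 1154 to 1303 lower. The other alternatives gave 862 to 1421 higher and 896 to 1574 lower, the ends being those of a filter at a higher intensity and of no filter. Median centring gave 1162 higher and 1102 lower. The Yorkshire counts of 1675 and 1918 became 1082 and 3111 as deposited, and the breed difference 2461 in place of 1817. Without centring the Yorkshire median change was -0.57.

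Of 274 genes followed, 233 were called, and none changed direction together with a call. The call was lost by 81 under Bonferroni adjustment, by 10 with values under 100 set to 100 and by 19 when 1 array was left out. ISG15, GBP2 and IRF1 lost it with no filter (adjusted p = 0.0547, 0.0543 and 0.058), and RPL9 with quantile normalization (-0.97). The replicate numbers of the arrays do not pair them: deviations from the group means correlated at -0.148, 0.104 and 0.012 between same-numbered arrays of the days. With the replicate number as a block, 1096 were higher and 1204 lower, and no named gene lost its call. Intensities under 100 carry little measurement, which limits 400 of the rises and 365 of the falls to lower bounds.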
